A study of Homo sapiens with 24 samples.

Results

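Antisense transcripts are RNAs made from the strand opposite to a gene, here mostly from the strand opposite to a protein-coding gene. The genes described are those that GENCODE release 29, a gene annotation of the human genome, types as antisense and that had 10 or more reads in at least 3 of the 24 libraries. Of 5468 such genes in the counts table, 1432 had 0 reads in every library and 1160 met the rule. One of these was left out by its symbol, so 1159 members remained (21.2% of the antisense genes and part of 58381 gene IDs in all). The members were chosen by these read counts and by annotation. The libraries come from T24, 5637, CLS-439 and TCC-SUP, which are 4 established lines of bladder cancer. A line either stayed untreated or received mitomycin C (MMC), a drug that alkylates and crosslinks DNA, at 75 µM over 1 h with RNA extraction 15 h later. There are 3 libraries in each of the 8 groups, numbered 1, 3 and 4, which the series' design calls biological replicates, made with a stranded poly(A) kit. No genetic change or other agent is named for any group.

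Many antisense RNAs start close to the start of a coding gene, because open promoters can fire in both directions, while others start inside the coding gene or beyond its end. Some act on their neighbour, as imprinted antisense RNAs do when they silence the opposite strand, and many have no known role. Most are made at low levels and are cut down quickly in the nucleus. MMC crosslinks block replication and transcription, and p53, NF-kB and AP-1 family factors are well known in the response to such damage.

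Each member was placed relative to its partner, the coding gene on the opposite strand whose span shares most bases with it. In 346 members each gene holds the other's start (head-to-head). A further 352 lie inside the partner, 241 run tail-to-tail with it so that each gene holds the other's end, and 78 span it. In 76 there is no overlap but a coding start on the other strand lies within 1000 bases upstream (divergent), and 66 have no partner. The median member had 1599 exon bases over a span of 5819 bases. A median of 10.7% of a member's exon bases lay opposite coding exons, and 336 members had none there. Clone names such as AC016027.1 stand for 734 of the members.

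The start regions of 6 head-to-head or divergent pairs are shown because these pairs carry the results below, 1 where both genes rose, 2 where the antisense RNA alone was called higher, 2 where it rose and the coding gene fell, and 1 where the coding gene rose and the antisense RNA was not called. Each is the RefSeq window (GRCh38.p14) of 300 bases, from 250 bases before to 50 bases after a transcription start, read 5′ to 3′ on the strand of the gene that names it. RefSeq windows were matched to 314 members and 827 of 1032 partners, and where a gene had several the one nearest the member's start was taken. Capitals mark matches to the motifs searched on both strands.
JDP2 (opposite AF111167.2), chr14:75427474-75427773, plus strand: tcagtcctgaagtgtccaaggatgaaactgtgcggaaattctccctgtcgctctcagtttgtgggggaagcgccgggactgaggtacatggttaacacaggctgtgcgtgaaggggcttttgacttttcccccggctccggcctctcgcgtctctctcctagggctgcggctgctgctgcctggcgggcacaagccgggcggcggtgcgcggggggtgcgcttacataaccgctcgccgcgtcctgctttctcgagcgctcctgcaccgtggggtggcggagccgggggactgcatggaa
DMTF1 (opposite AC005076.1), chr7:87152203-87152502, plus strand: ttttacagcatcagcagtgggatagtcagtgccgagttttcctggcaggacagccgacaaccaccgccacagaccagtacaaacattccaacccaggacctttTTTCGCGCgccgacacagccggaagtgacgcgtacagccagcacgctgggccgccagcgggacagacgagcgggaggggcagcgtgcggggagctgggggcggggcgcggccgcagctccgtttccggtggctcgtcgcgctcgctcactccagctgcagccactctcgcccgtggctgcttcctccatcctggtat
MORC3 (opposite AP000692.2), chr21:36319947-36320246, plus strand: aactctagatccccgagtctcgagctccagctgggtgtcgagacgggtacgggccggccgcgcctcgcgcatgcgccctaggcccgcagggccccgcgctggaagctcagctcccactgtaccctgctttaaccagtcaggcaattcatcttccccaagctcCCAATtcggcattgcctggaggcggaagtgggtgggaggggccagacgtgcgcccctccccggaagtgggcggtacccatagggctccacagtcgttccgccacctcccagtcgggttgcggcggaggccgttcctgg
ACTN1 (divergent from ACTN1-AS1), chr14:68979253-68979552, minus strand: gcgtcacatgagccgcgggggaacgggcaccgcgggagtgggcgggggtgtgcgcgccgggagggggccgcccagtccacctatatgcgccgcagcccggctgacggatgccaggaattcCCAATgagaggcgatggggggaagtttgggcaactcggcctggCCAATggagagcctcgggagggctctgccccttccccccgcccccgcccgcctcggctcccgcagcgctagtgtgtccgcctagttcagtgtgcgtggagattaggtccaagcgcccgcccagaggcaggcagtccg
LPP-AS2 (opposite LPP), chr3:188154039-188154338, minus strand: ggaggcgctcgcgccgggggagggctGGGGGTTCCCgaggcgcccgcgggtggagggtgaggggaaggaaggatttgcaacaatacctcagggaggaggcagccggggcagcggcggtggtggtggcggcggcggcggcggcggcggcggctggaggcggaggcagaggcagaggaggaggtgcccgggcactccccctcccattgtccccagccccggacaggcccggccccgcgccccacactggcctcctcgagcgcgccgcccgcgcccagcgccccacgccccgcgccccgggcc
IL6 (opposite AC073072.1), chr7:22726950-22727249, plus strand: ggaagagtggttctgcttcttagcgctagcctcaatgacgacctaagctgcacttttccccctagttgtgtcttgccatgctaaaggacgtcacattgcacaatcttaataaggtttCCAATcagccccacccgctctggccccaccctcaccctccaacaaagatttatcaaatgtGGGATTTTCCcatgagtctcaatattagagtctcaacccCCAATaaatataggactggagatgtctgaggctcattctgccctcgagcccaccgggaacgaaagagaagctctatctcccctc

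The JDP2 window held none of the 7 motifs searched, and the annotated start of AF111167.2 lies inside it, 17 bases downstream of the RefSeq start of JDP2. The DMTF1 window also holds the start of its antisense RNA and has 1 E2F match (TTTGGCGC or TTTCGCGC), a motif present in 1.15% of all 35116 windows. CCAAT occurred in the MORC3, ACTN1 and IL6 windows and in 34.6% of all windows. A match to the NF-kB site, searched by its name alone, occurred in the LPP-AS2 and IL6 windows and in 5.91% of all windows. The AP-1 motif TGANTCA (7.71% of all windows), the CRE TGACGTCA (1.85%), TATAAA (11.5%) and the p53 site by name (6.63%) were in none of the 6. These are letter matches in a window, not measured binding.

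ACTN1-AS1 shares no exon base with a coding gene, so its own sequence carries its reads. The first 100 bases of its longest annotated transcript (599 bases, GENCODE 29) are shown as the sequence of 1 such RNA.
ACTN1-AS1: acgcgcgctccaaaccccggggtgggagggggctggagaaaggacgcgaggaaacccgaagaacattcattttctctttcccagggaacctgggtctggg

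Library totals ran from 13791428 to 28821665 reads. Of the markers of the labelled tissue, KRT7, KRT8 and KRT18 reached at least 27.0 CPM (read counts scaled to library size, with TMM factors) in every group, while the uroplakins of mature urothelium, UPK1A, UPK2 and UPK3A, stayed at or below 0.364 CPM. Other epithelial markers were near 0 in some lines, with CDH1 at 0.0129, KRT5 at 0.0152 and TP63 at 0.0255 CPM in untreated T24. In untreated CLS-439, KRT5 was at 0.181, KRT19 at 0.815, GATA3 at 1.98 and CDH1 at 2.1 CPM. The T cell marker CD3E was at or below 0.0319 CPM. PTPRC stood at 30.0 CPM in untreated TCC-SUP and 11.4 CPM after MMC. CD14 was at 8.61 CPM in untreated TCC-SUP, and the endothelial marker CDH5 at 7.13 CPM in untreated T24. Among mesenchymal markers, FN1 was at or above 1389 CPM in every group. In untreated TCC-SUP, COL1A1 was at 4298, COL1A2 at 4120 and VIM at 10.2 CPM, beside KRT5 at 0.66, TP63 at 2.28 and EPCAM at 5.48 CPM. The 6 CLS-439 libraries stood apart. All genes of the mitochondrial chromosome together took 0.0238% to 0.0283% of reads against 3.21% to 7.40% elsewhere. Processed pseudogenes took 2.75% to 3.05% against 0.143% to 0.228%. In CLS-439, 274 to 382 members had 10 or more reads in a library, against 570 to 830 in the other lines. The part of these differences in the results was not tested, and in bulk RNA fewer cells making a transcript and less transcript per cell cannot be told apart.

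Members were low. Their median level over all libraries was 0.622 CPM, 747 were under 1 CPM and 34 reached 10 CPM. Per kb of exon, the median member stood at 9.46% of its partner's untreated level, over 1069 members with a counted partner, and 148 members were under 1% of it. The strand setting of the counting is not stated, and without strand the reads of a member and its partner cannot be told apart where their exons overlap. Of 310 antisense genes lying wholly opposite coding exons, 264 had reads. Among 244 of them with a partner above 1 CPM per kb, the median stood at 0.543% of the partner and 2 reached 50%. What part of the lowest levels comes from the other strand was not tested.

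Together the members took 0.110% to 0.308% of reads. In T24 their summed level was 1992, 1884 and 1818 CPM without treatment and 2251, 2229 and 2156 CPM after MMC. In 5637 it was 2099, 2022 and 2059 CPM without and 2209, 2739 and 2683 CPM after. In both lines every treated library lay above every untreated one, and treated replicate 1 of 5637 was the lowest of its group. In TCC-SUP the groups overlapped, at 2838 ± 124 CPM (SD, n = 3) and 2889 ± 88.4 CPM (SD, n = 3), as they did in CLS-439, at 1024 ± 39.1 CPM and 1016 ± 7.25 CPM (SD, n = 3 each).

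**Figure D1:**
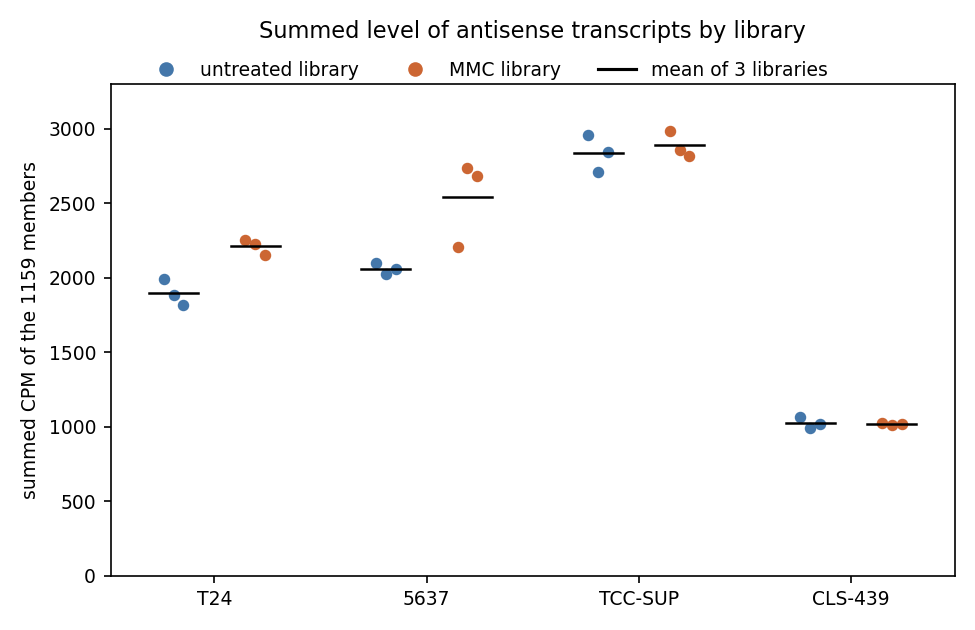
Summed level of the 1159 antisense members in each library, in CPM, by cell line. Points are libraries and bars are means of 3. The treated libraries of T24 and 5637 lie above the untreated ones, those of TCC-SUP and CLS-439 overlap them, and CLS-439 lies lowest at 990 to 1067 CPM.

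The first comparison asks how the antisense members responded to MMC in each line. Called rises far outnumbered called falls in T24 and 5637 and did so less clearly in TCC-SUP, while hardly any member was called in CLS-439. The share of rises lay near that of all genes in T24 and TCC-SUP and above it in 5637. The share of falls lay below that of all genes in these 3 lines. Of the 1133 members with enough reads to test, 188 rose and 50 fell in T24, where 15.2% of all genes tested were called higher and 13.4% lower. In 5637, 255 rose and 70 fell, where the shares of all genes were 15.9% and 13.6%. In TCC-SUP, 96 rose and 51 fell against 9.57% and 11.1%. In CLS-439 none rose and 2 fell against 0.298% and 0.322%, while 71 members there had an unadjusted p under 0.05 and DESeq2 called 0 higher and 3 lower. As shares of the tested members, rises came to 16.6% in T24, 22.5% in 5637 and 8.47% in TCC-SUP, and falls to 4.41%, 6.18% and 4.5%. Calls are at an adjusted p of 0.05 in edgeR's quasi-likelihood test over 20820 genes. The rule itself admits some members through treatment: 49 had 10 or more reads only in treated libraries and 22 only in untreated ones.

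Below 10 CPM, rises outnumbered falls among the members, and in T24 and 5637 among coding genes of like level too. Among coding genes at a mean of 1 to 10 CPM, 18.2% rose and 12.3% fell in T24, while of the 378 members in that range 22.5% rose and 5.56% fell. In 5637 the coding genes of that range gave 21.7% and 14.3% and the members 31.7% and 8.73%. In TCC-SUP they gave 10% and 14.6% against 13% and 5.03%. Under 1 CPM, 10.2% of coding genes rose and 3.33% fell in T24, and of the 721 members 13.5% and 3.33%. In 5637 the coding genes of that level gave 12.7% and 6.65% and the members 17.6% and 4.72%, and in TCC-SUP 6.76% and 6.65% against 5.83% and 4.16%. Over all levels, coding genes gave 17.5% and 16.8% in T24, 17.6% and 17% in 5637 and 11.3% and 14.1% in TCC-SUP. Of long intergenic RNAs, 14.2% were higher and 5% lower in T24, 18.6% and 6.01% in 5637 and 7.22% and 7.31% in TCC-SUP. The median log2 change of members with 10 or more reads in at least 3 libraries of the line was 0.25 over 649 members for T24, 0.40 over 670 for 5637, 0.04 over 813 for TCC-SUP and -0.06 over 353 for CLS-439. That of all genes so counted lay between -0.01 and 0.01.

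These counts rest on particular libraries. Without the libraries numbered 1 they grew, to 231 higher in T24, 306 in 5637 and 129 in TCC-SUP. Without those numbered 3 they came to 67, 81 and 15, and without those numbered 4 to 27, 56 and 2. Rises outnumbered falls in each of these fits for the 3 lines.

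Shares were counted by position relative to the partner. In 5637, 104 of 337 head-to-head members (30.9%) and 28 of 73 divergent ones (38.4%) rose, against 66 of 344 inside (19.2%), 13 of 77 spanning (16.9%), 38 of 237 tail-to-tail (16.0%) and 6 of 65 with no partner (9.23%). No divergent member fell in 5637, and 15 head-to-head members did. T24 had the same order at its ends, with 72 head-to-head (21.4%) and 16 divergent (21.9%) members higher and 31 tail-to-tail (13.1%) and 7 without a partner (10.8%). In TCC-SUP the classes lay closer, from 6.33% of tail-to-tail to 13.8% of members with no partner. The median change of head-to-head members read in the line was 0.43 in T24, 0.68 in 5637 and 0.08 in TCC-SUP. The differences between classes were not tested.

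**Figure D2:**
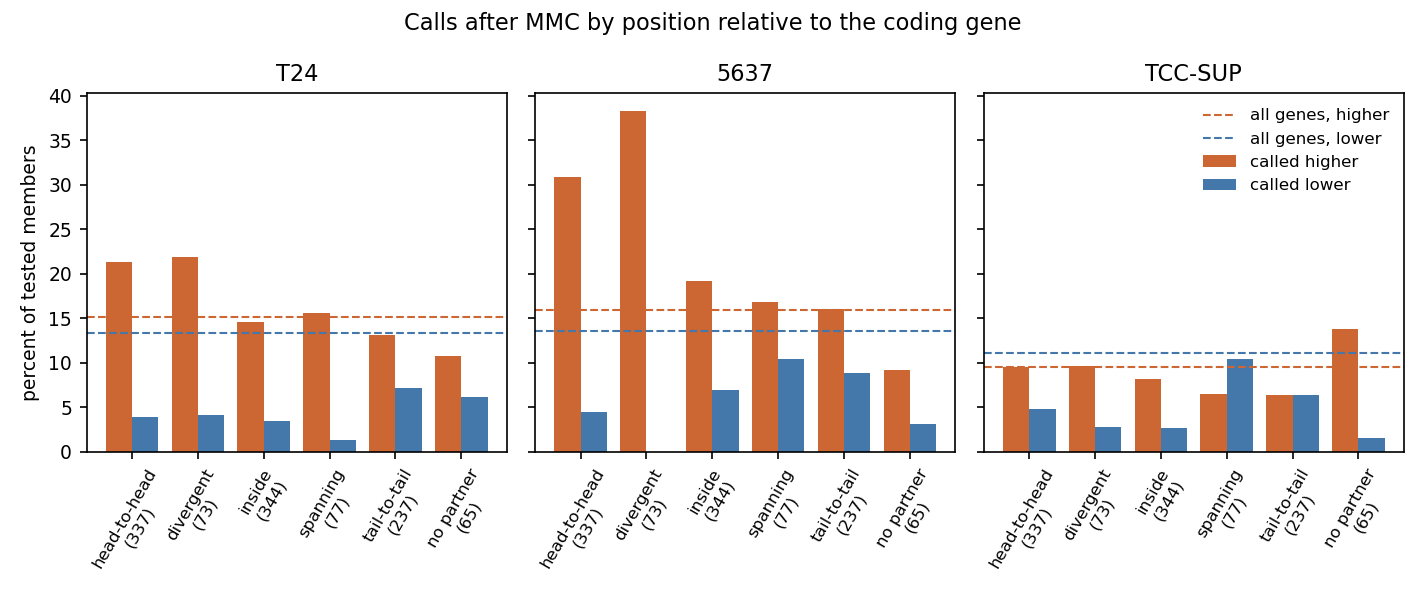
Percent of tested members called higher (orange) and lower (blue) after MMC, by position relative to the coding partner, with the number of members in brackets. Dashed lines give the share of all genes called. In T24 and 5637 the head-to-head and divergent classes rise above the dashed line for higher calls, at 21.4% and 21.9% and at 30.9% and 38.4%.

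Head-to-head members with large fitted changes are described first. AP000692.2 starts inside MORC3, which encodes a nuclear ATPase found at PML bodies. It had at most 4 reads in any untreated library and so met the rule through treated libraries alone, which means that it had to differ. It stood at 0.116, 0.0457 and 0.151 CPM in untreated T24 and at 3.09, 0.682 and 2.24 CPM after MMC, and at 0.102, 0.193 and 0.184 CPM against 1.68, 3.97 and 3.49 CPM in 5637. All treated libraries of the 2 lines were above all untreated ones, with log2 changes of 4.14 (SE 0.59, adjusted p = 1.26e-05) and 4.2 (SE 0.55, adjusted p = 4.46e-06). In TCC-SUP it was 0.143 and 0.245 CPM and was not called. MORC3 itself changed by 0.59 in T24 and 0.20 in 5637 on the log2 scale, neither called.

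AC016027.1 lies opposite the start of PEX26, a peroxisome membrane anchor. It was at 1.2, 0.548 and 0.981 CPM in untreated T24 and 3.25, 6.96 and 4.59 CPM after MMC. In 5637 it was at 0.966, 0.821 and 0.644 CPM against 2.48, 7.55 and 4.25 CPM, and in TCC-SUP at 1.19, 0.921 and 0.665 CPM against 1.68, 2.79 and 3.31 CPM. Treated replicate 1 was the lowest treated library in all 3 lines, and no treated library overlapped the untreated ones. The log2 changes were 2.42, 2.56 and 1.48, with adjusted p of 6.47e-05, 4.67e-05 and 0.0115, while PEX26 changed by 0.28, 0.15 and 0.22 and was not called.

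AL161421.1, opposite the start of FNDC3A, kept its rise in each of the 9 alternative fits run for it in the 3 lines. It went from 1.97 ± 0.436 to 6.66 ± 1.81 CPM in T24, from 0.518 ± 0.138 to 2.89 ± 1.12 CPM in 5637 and from 1.83 ± 0.436 to 6.72 ± 1.52 CPM in TCC-SUP (mean ± SD, n = 3). The groups did not overlap in any of the 3, with log2 changes of 1.76, 2.47 and 1.88, and the partner changed by 0.01, -0.39 and -0.16. AL138724.1, at the start of NUP153 of the nuclear pore, rose by 2.56 in T24, 1.47 in 5637 and 1.39 in TCC-SUP. MATN1-AS1 rose by 2.30, 1.22 and 1.93, and AL139385.1, at the NAD(P)H repair gene NAXD, by 1.76, 1.81 and 2.09. Treated replicate 1 lay among the untreated libraries for MATN1-AS1 in 5637 and for AL139385.1 in T24. That library of AL139385.1 was at 0.541 CPM, against 0.659, 0.548 and 0.377 CPM untreated. Both of these calls were lost with the line fitted alone, without the libraries numbered 3 and without those numbered 4.

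AL117332.1, opposite the start of the nuclear exoribonuclease gene XRN2, rose by 2.49 in 5637 and 1.19 in T24, and was not called in TCC-SUP at 0.78. AC005076.1, whose start lies 59 bases from that of DMTF1, went from 0.305, 0.628 and 0.184 CPM to 0.889, 3.28 and 2.27 CPM in 5637 (log2 change 2.52, adjusted p = 0.000124). It was not called in T24 or TCC-SUP, and its response differed among the 4 lines (adjusted p = 0.0249).

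In 2 divergent pairs the antisense RNA rose and the coding gene was lower or not called. ACTN1-AS1, shown above, stood at 0.116, 0.366 and 0.264 CPM in untreated T24 and 1.57, 1.27 and 1.45 CPM after MMC. Its log2 changes were 2.52 (SE 0.49) in T24, 2.5 (SE 0.60) in 5637 and 1.61 (SE 0.47) in TCC-SUP, and all treated libraries of each line were above its untreated ones. Without treatment it reached 10 reads only in replicate 4 of TCC-SUP. It therefore needed treated libraries to meet the rule, which favours a rise. ACTN1, which encodes the actin crosslinker alpha-actinin, fell by 0.60 in T24 and by 1.05 in TCC-SUP, and its change of -0.47 in 5637 had an adjusted p of 0.0502. AL356215.1, divergent from the hyaluronan receptor gene CD44, rose by 2.19, 3.28 and 1.44, and CD44 changed by -0.16, -0.27 and -0.41 with no call.

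**Figure D3:**
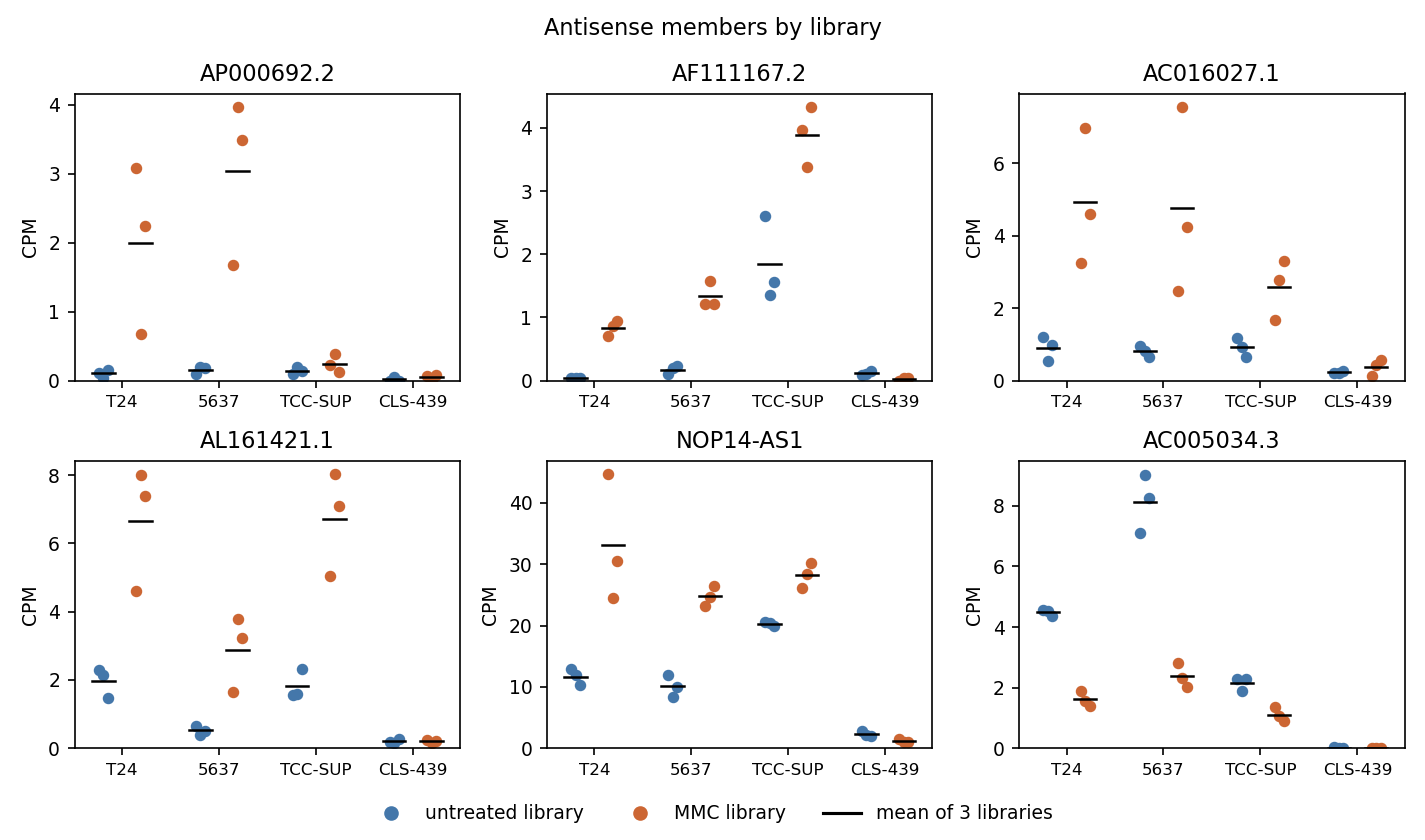
Level of 6 antisense members in each library, in CPM, by cell line, with untreated (blue) and MMC (orange) libraries and the mean of 3. AP000692.2 rises in T24 and 5637, AF111167.2, AC016027.1 and AL161421.1 rise in T24, 5637 and TCC-SUP, NOP14-AS1 rises in T24 and 5637, and AC005034.3 falls in T24, 5637 and TCC-SUP.

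Calls that were shared or opposite between lines taken in pairs were counted for members only, so nothing is read from these counts about members in particular. Of the members higher in T24, 111 were also higher in 5637, which is 59.0% of the T24 calls and 43.5% of the 5637 calls. Between T24 and TCC-SUP 61 were shared, and between 5637 and TCC-SUP 58. In all, 45 members rose in T24, 5637 and TCC-SUP (3.97%, against 4.09% of all genes), among them 19 head-to-head, 14 inside, 5 tail-to-tail, 5 divergent and 2 spanning. Only 8 fell in these 3 lines (0.706%, against 4.23% of all genes). None was called in 1 direction in all 4 lines, as against 0.0528% and 0.106% of all genes. Opposite calls were made for 2 members between T24 and 5637 and for 2 between 5637 and TCC-SUP.

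Members inside coding genes also rose in these 3 lines. AC009831.1, inside TRAPPC8, rose by 1.88, 2.55 and 2.36 in T24, 5637 and TCC-SUP, and TRAPPC8 fell by 0.62 in T24 and was not called in the other 2. AC009121.2, inside RMI2, rose by 2.06, 3.43 and 1.44, and AC092123.1, inside SPG7, by 2.04, 2.47 and 2.13. In 5637 AC009121.2 had 1, 0 and 0 reads untreated and 3, 9 and 3 after MMC. AC092123.1 had 1, 1 and 1 there and then 4, 7 and 8. DESeq2 lost the TCC-SUP call of AC009121.2 (adjusted p = 0.0534) and the 5637 call of AC092123.1 (adjusted p = 0.0542). AL731571.1, inside the corepressor gene CTBP2, rose by 3.37 in 5637 and 3.59 in TCC-SUP. AC092123.1 and AL731571.1 met the rule through treated libraries alone, with at most 4 and 8 reads in an untreated one. Without treatment AC009121.2 reached 10 reads only in replicate 1 of TCC-SUP, so it too needed treated libraries to meet the rule. SMAD5-AS1, head-to-head with SMAD5, rose by 2.34, 2.34 and 4.29 in the 3 lines, from at most 2 reads in an untreated library, and also met the rule through treated libraries alone. Its T24 call was kept in 2 of 7 alternative fits, with an adjusted p of 0.107 in DESeq2, and its 5637 call was lost in DESeq2.

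The 8 members that fell in T24, 5637 and TCC-SUP were AC005034.3, AL354836.1, RAP2C-AS1, CCNT2-AS1, AL162431.2, FAM13A-AS1, LINC00894 and AC025171.2. AC005034.3, inside GCFC2, was at 4.57, 4.52 and 4.38 CPM in untreated T24 and 1.89, 1.55 and 1.40 CPM after MMC. In 5637 it went from 7.12, 9.03 and 8.27 CPM to 2.81, 2.30 and 2.02 CPM. Every treated library was below every untreated one in these lines and in TCC-SUP, with log2 changes of -1.48, -1.77 and -0.97 (SE 0.24, 0.23 and 0.25), and GCFC2 was not called. RAP2C-AS1 fell by 2.61, 1.93 and 3.05, and met the rule through untreated libraries alone. With the replicate number as a block, which pairs the 5637 libraries, the 5637 calls of RAP2C-AS1 (adjusted p = 0.0725) and FAM13A-AS1 (adjusted p = 0.0676) were lost, as was the TCC-SUP call of AL162431.2 (adjusted p = 0.0621). The FAM13A-AS1 call in 5637 was kept in 1 of 9 alternative fits. LINC00894 fell by 1.11, 1.30 and 0.98, while CXorf40B, whose start lies 183 bases away, rose by 0.73 in T24 and 0.56 in TCC-SUP. AL354836.1, inside the proteasome ubiquitin receptor gene ADRM1, fell by 1.02, 0.98 and 0.85 with ADRM1 not called.

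Other members fell in 1 or 2 lines. HOTTIP, which lies beside HOXA13 at the end of the HOXA cluster, was at 4.46, 3.24 and 2.11 CPM in untreated T24 and 1.52, 1.32 and 0.748 CPM after MMC. It fell by 1.45 (SE 0.39, adjusted p = 0.00754) and HOXA13 by 1.24 (SE 0.32). FAM198B-AS1 in 5637 went from 7.17, 7.68 and 7.77 CPM to 2.39, 1.49 and 1.42 CPM, a fall of 2.09, and FAM198B fell by 2.13. DNM3OS, the host RNA of a microRNA cluster, fell by 1.46 in TCC-SUP with DNM3 at -2.32, and had 0 reads in T24 and 5637. C5orf66, tail-to-tail with the histone variant gene H2AFY, fell by 3.23 in 5637 and 2.66 in TCC-SUP while H2AFY was not called in either. In CLS-439 the 2 members that fell were HOXA10-AS, from 2.89, 3.57 and 2.37 CPM to 0.937, 1.22 and 1.65 CPM (log2 change -1.19, adjusted p = 0.0163), and ZFHX4-AS1 (-1.79, adjusted p = 0.039). Both lost the call when the libraries numbered 1, 3 or 4 were left out.

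Among the 10 members with the highest untreated levels, calls were made in both directions. FGD5-AS1, the highest, was at 164, 179 and 180 CPM in untreated T24 and 115, 139 and 121 CPM after MMC. It fell by 0.48 there and was not called in the other lines. SNHG12, a host of small nucleolar RNAs, rose from 38.4, 41.9 and 44.3 CPM to 101, 72.9 and 83.2 CPM in T24 (log2 change 1.05, adjusted p = 4.27e-06) and was not called elsewhere. SNHG7 fell by 0.46 in 5637 and by 0.48 in TCC-SUP. PSMA3-AS1 and OTUD6B-AS1 fell by 0.86 and 0.60 in T24. THAP9-AS1 rose by 0.95 in 5637 and 0.69 in TCC-SUP, and NNT-AS1 by 0.71 in 5637. HCG18 and THUMPD3-AS1 were called in no line.

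The next question is whether the response differed among the lines, taken in 1 test over all 4. It did for 85 members (7.5%), a smaller share than the 16% of all genes. Without the CLS-439 libraries the count was 26, and without the libraries numbered 4 it was 0. NOP14-AS1, tail-to-tail with the ribosome biogenesis gene NOP14, had the smallest p (adjusted p = 4.61e-05). It went from 12.9, 11.9 and 10.2 CPM to 44.7, 24.4 and 30.5 CPM in T24 and from 11.9, 8.31 and 10 CPM to 23.2, 24.7 and 26.5 CPM in 5637. In TCC-SUP it was at 20.3 and 28.3 CPM on average and in CLS-439 at 2.30 and 1.21 CPM. The log2 changes were 1.51, 1.30, 0.48 and -0.96, of which the first 2 were called, and NOP14 was called in no line.

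AC022167.2, opposite CARHSP1, had changes of opposite sign in 2 lines. It was at 1.63, 2.6 and 1.55 CPM in untreated T24 and 4.33, 9.51 and 8.93 CPM after MMC (log2 change 1.99). In 5637 it was at 1.47, 1.21 and 1.47 CPM and 0.562, 0.939 and 0.708 CPM (log2 change -0.90, adjusted p = 0.118). The groups did not overlap in either line, and the 5637 difference was not called. L34079.3 rose by 2.63 in T24 and 2.32 in 5637, the latter from 0.0484 to 0.268 CPM.

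The last comparison asks whether members and partners moved together. Among pairs read in the line, the partner of a member that rose was itself higher in 21, lower in 24 and not called in 79 of 124 pairs in T24. In 5637 the counts were 32, 22 and 113 of 167, and in TCC-SUP 7, 11 and 49 of 67. Over all pairs read in the line, 97 partners were higher and 127 lower of 550 in T24. The counts were 90 and 111 of 561 in 5637, and 56 and 119 of 674 in TCC-SUP. The partners of members that rose lay near these shares in T24 and TCC-SUP. In 5637 more of them were higher than lower, the reverse of all pairs there, and this difference was not tested. Partners of members that fell were lower in 8 of 31 pairs in T24, 13 of 47 in 5637 and 9 of 41 in TCC-SUP. The median change of the partners of members that rose was 0.02, 0.04 and -0.07. Across all such pairs in a line, which share libraries, Pearson's r was 0.10 in T24 (550 pairs), 0.13 in 5637 (561) and 0.08 in TCC-SUP (674).

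**Figure D4:**
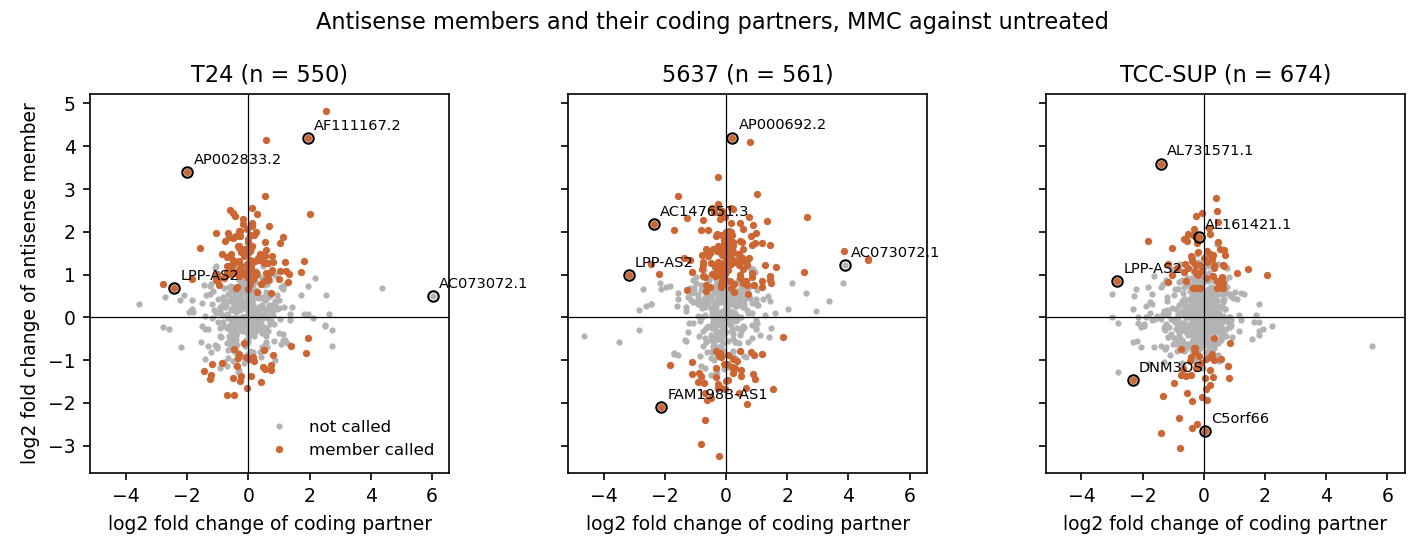
Log2 change after MMC of each antisense member (vertical) against that of its coding partner (horizontal), for 550, 561 and 674 pairs read in T24, 5637 and TCC-SUP. Members that were called are orange, and named pairs are circled. Points spread along both axes, with r between 0.08 and 0.13.

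The difference between member and partner was tested as the log2 ratio of the pair (limma over 5810 opposite-strand pairs, 861 of them member pairs). Overlapping coding genes enter this set once in each direction, so their called shifts up and down are equal in number by construction. The shares of all pairs are thereby drawn toward evenness. The ratio moved toward the antisense RNA in 195 member pairs and away from it in 80 in T24, where 19.4% and 15.6% of all pairs were called. In 5637 the counts were 247 and 73 against 22.3% and 16.7%, in TCC-SUP 129 and 44 against 15.8% and 12.1%, and in CLS-439 2 and 0 against 0.43% and 0.379%. As shares of member pairs, ratios moved toward the antisense RNA in 22.6%, 28.7% and 15% in the first 3 lines. Unlike the comparison above, these counts include pairs whose member was hardly read in the line. A shift toward the antisense RNA can then be a fall of the partner alone. In CLS-439 both called pairs had a called fall of the partner and no call of the member. Of the 195 in T24, 66 had a called rise of the member alone, 74 a called fall of the partner alone, 28 both and 26 neither. The partners in pairs that moved toward the antisense RNA were long, with a median span of 86524 bases in T24, 75177 in 5637 and 126562 in TCC-SUP, against 43729 for all member pairs.

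LPP-AS2 and LPP gave such a shift in 3 lines. LPP, which encodes a focal adhesion protein over a span of 737388 bases, was at 83.5, 81.4 and 98.5 CPM in untreated T24 and 35.3, 5.00 and 9.43 CPM after MMC. LPP-AS2 was at 3.64, 3.56 and 2.87 CPM and then at 5.74, 4.59 and 5.83 CPM. No library of either gene overlapped between the groups, in T24, 5637 or TCC-SUP. LPP-AS2 rose by 0.68, 0.99 and 0.85, LPP fell by 2.41, 3.18 and 2.82, and the ratio rose by 3.54, 4.59 and 3.64 (adjusted p = 0.000107, 4.29e-06 and 0.000161). Treated replicate 1 of T24 and of 5637 kept most LPP. In CLS-439 neither gene was called.

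Members inside coding genes gave shifts of the same direction. AC147651.3, inside the protein kinase A subunit gene PRKAR1B, was at 0.661, 0.483 and 0.552 CPM in untreated 5637 and 1.64, 3.37 and 2.73 CPM after MMC, while PRKAR1B went from 50.8, 48.2 and 44.5 CPM to 16.9, 5.33 and 5.91 CPM. The ratio rose by 4.52. AP002833.2, inside the adhesion gene KIRREL3, rose by 3.40 in T24 where KIRREL3 fell by 1.99 (ratio 4.79). AP002833.2 had at most 5 reads in an untreated library and met the rule through treated libraries alone. AC087392.1, inside NXN, rose by 2.83 in 5637 where NXN fell by 1.56. In AC008708.2, inside TENM2, the ratio rose by 5.04 in 5637 although the antisense RNA had 0 reads there, so that value is the fall of TENM2 alone.

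Shifts away from the antisense RNA included pairs at inflammatory genes. IL6, which encodes a cytokine driven by NF-kB, went from 4.30, 4.34 and 4 CPM to 247, 313 and 269 CPM in T24 (log2 change 6.03). AC073072.1, head-to-head with it, was at 0.775, 0.868 and 0.830 CPM and then at 1.46, 1.00 and 1.05 CPM, and was not called at 0.50. The ratio fell by 5.55 in T24, 2.89 in 5637 and 2.11 in TCC-SUP. By annotation the GENCODE start of IL6 is at position -1316 from the RefSeq start shown above.

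TNFAIP3, which encodes the NF-kB inhibitor A20, and AL357060.1 were both called higher in 5637 and TCC-SUP, and only TNFAIP3 in T24. In T24 TNFAIP3 went from 42.4, 59.5 and 91.0 CPM to 1061, 1376 and 1589 CPM (log2 change 4.38), and AL357060.1 from 1.05, 1.10 and 1.40 CPM to 1.19, 2.18 and 2.29 CPM, which was not called. In 5637 AL357060.1 went from 4.57, 3.91 and 4 CPM to 19.7, 18.0 and 21.5 CPM (log2 change 2.24), and TNFAIP3 rose by 1.34. The ratio fell by 3.84 in T24 and rose by 0.89 in 5637 (adjusted p = 1.34e-09 and 0.0153). In TCC-SUP AL357060.1 rose by 1.13 (adjusted p = 0.0229) and TNFAIP3 by 1.45, and the ratio was not called at -0.46. AL357060.1 was there at 0.730, 1.36 and 1.28 CPM and then at 1.26, 2.24 and 3.84 CPM, so the groups overlapped. This call was kept in 6 of 9 alternative fits and lost with the line fitted alone.

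AF111167.2 and JDP2, which share the start region shown above, rose together in T24 and 5637. JDP2 encodes a repressor of the AP-1 family. AF111167.2 was at 0.0387, 0.0457 and 0.0377 CPM in untreated T24 and 0.704, 0.864 and 0.947 CPM after MMC, and at 0.102, 0.193 and 0.230 CPM and 1.22, 1.58 and 1.21 CPM in 5637. JDP2 went from 8.49, 10.1 and 6.30 CPM to 44.2, 24.8 and 27.3 CPM in T24. The antisense RNA rose by 4.19, 2.88 and 1.07 in T24, 5637 and TCC-SUP, and JDP2 by 1.95 and 1.01 in the first 2 with -0.29 and no call in TCC-SUP. The ratio was not called in T24 (0.87, adjusted p = 0.101), where AF111167.2 had 1 read in each untreated library, so that the prior count of 2 lowers this value. The ratio rose by 1.51 in 5637 and 1.37 in TCC-SUP.

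**Figure D5:**
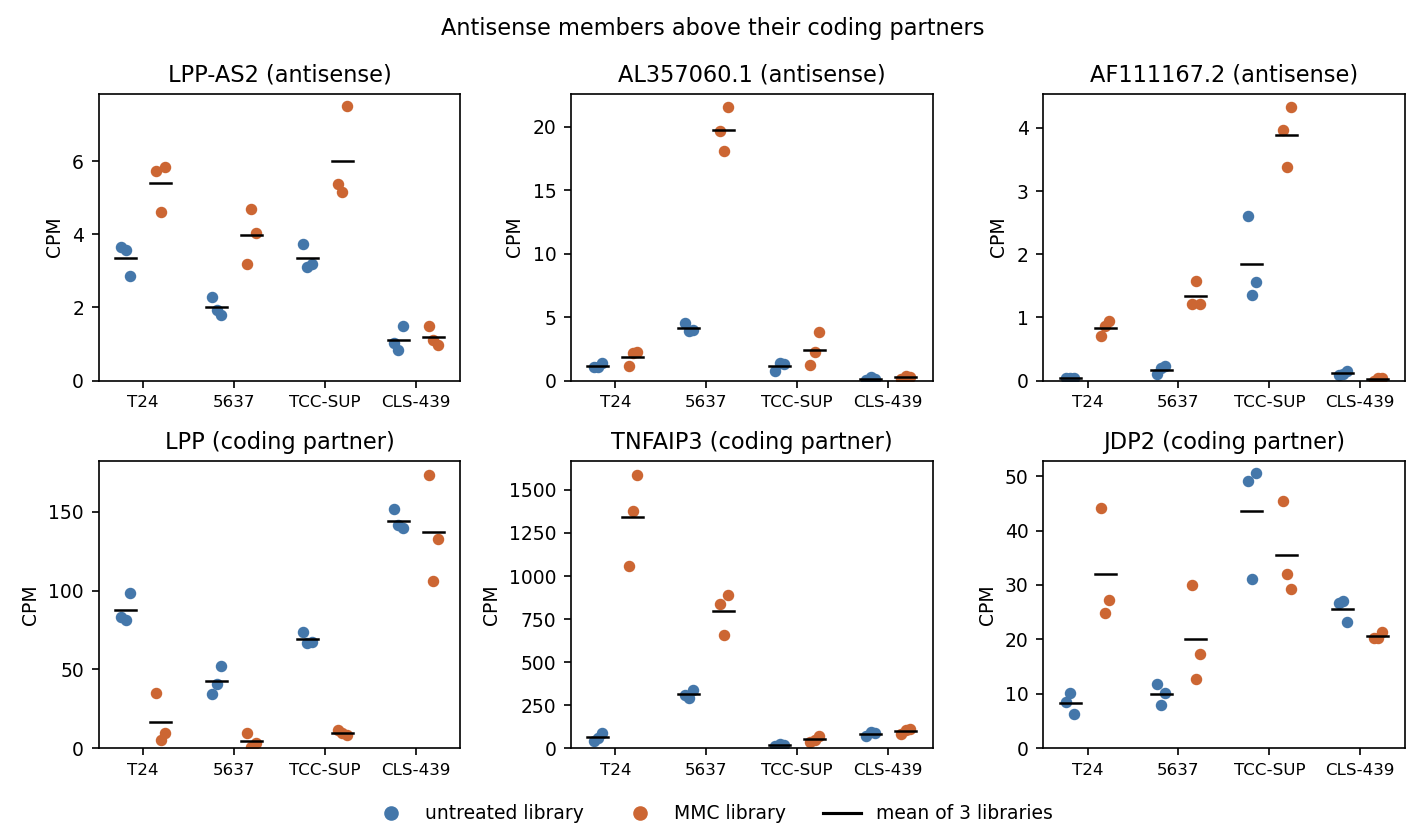
Level of 3 antisense members (top) and their coding partners (bottom) in each library, in CPM on separate axes, by cell line. LPP-AS2 rises as LPP falls in T24, 5637 and TCC-SUP, AL357060.1 rises most in 5637 and TNFAIP3 most in T24, and AF111167.2 and JDP2 both rise in T24 and 5637.

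Of a list of 17 antisense RNAs of the HOX clusters, which code for body-axis transcription factors, 12 were members and were tested. In T24 1 rose and 2 fell, in 5637 4 rose and 0 fell, in TCC-SUP 1 rose and 2 fell, and in CLS-439 1 fell. The shares of all genes called higher and lower were 15.2% and 13.4% in T24, 15.9% and 13.6% in 5637, and 9.57% and 11.1% in TCC-SUP, and with 12 members tested nothing is read from these counts. The rises in 5637 were HAGLR (0.76), HOXA-AS3 (0.91), HOXB-AS3 (2.07) and HOXD-AS2 (1.22). HOXB-AS3 had 0, 2 and 3 reads there untreated and 3, 12 and 8 after MMC, so its value depends on the prior count. HOXB-AS1 rose by 0.72 in T24 and HOXA-AS3 by 1.23 in TCC-SUP. HOTAIRM1 fell by 0.92 in T24 and by 0.59 in TCC-SUP, and HOTAIR was called in no line. The median change of the list's members read in the line was -0.17 in T24 (9 members), 0.63 in 5637 (7) and -0.17 in TCC-SUP (11).

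Of 69 listed antisense RNAs studied in cancer, 31 were members and were tested. In T24 1 rose and 4 fell, in 5637 7 rose and 2 fell, in TCC-SUP 2 rose and 2 fell, and in CLS-439 none was called. Of all members 16.6% rose and 4.41% fell in T24, 22.5% and 6.18% in 5637, and 8.47% and 4.5% in TCC-SUP, beside the shares of all genes given above. CDKN2B-AS1, which runs antisense to the cell cycle inhibitor gene CDKN2B, rose by 1.06 in 5637 from 1.74 to 3.64 CPM, where CDKN2B rose by 2.54. KCNQ1OT1, the imprinted antisense RNA of KCNQ1, rose there by 1.51 from 4.57 to 13.1 CPM, with treated replicate 1 among the untreated values. TMPO-AS1 rose by 1.02 there, from 11.5 to 23.3 CPM. GABPB1-AS1 rose by 0.68 in both T24 and TCC-SUP, with treated replicate 1 of T24 among the untreated values by CPM. LOXL1-AS1 fell by 0.75 in T24 and 0.72 in TCC-SUP, MCM3AP-AS1 by 0.96 in T24 and NR2F1-AS1 by 1.08 in 5637 and 0.70 in TCC-SUP. ZEB1-AS1, TTN-AS1 and NKILA were called in no line.

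At the threshold of the rule, 54 antisense genes had exactly 10 reads in their third-highest library, with a mean of 2.58 to 6.54 reads per library. Another 80 had 9 reads there and were left out, with 1.79 to 6.33. The members that passed through 1 line only numbered 208, of which 95 were in TCC-SUP, 53 in CLS-439, 41 in 5637 and 19 in T24, and 102 members had 10 or more reads in all 24 libraries. Of all members, 26 had too few reads to be tested.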

How the data were processed

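Poly(A) RNA from 24 cell line cultures was sequenced with a stranded kit. The deposited table holds whole-number counts of reads, 1 row per Ensembl gene ID and 1 column per library. Per the submitters' processing notes, STAR 2.5.3a, featureCounts 1.6.2 and GRCh38 were used. No source used here names the annotation release or the strand setting. Samples were grouped by line and treatment from the labels, in which the drug tag is spelled MCC, and 0 value columns were left unused. Replicates were separate libraries, and the smallest chi-square between libraries of 1 group was 3.60 per gene, so none was a copy of another. Symbols, types and positions come from GENCODE 29, which holds 58216 of the 58381 IDs. Members and lists were chosen with earlier results of these data known.

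Counts were fitted in edgeR 4.0.16 (R 4.3.3) with filterByExpr, TMM factors, 8 group means and the robust quasi-likelihood test (16 residual degrees of freedom). P-values were adjusted by Benjamini-Hochberg over 20820 genes and called at 0.05. Changes are MMC against untreated on the log2 scale. Genes near 0 in 1 group have fitted changes that depend on the prior count. Pair ratios were the difference of log2 CPM (prior count 2) in limma 3.58.1, with trend and robust settings, over 5810 pairs. Both fits were tested on simulated data. DESeq2 1.42.0 was an alternative.

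Named members were, per line, up to 6 largest rises and 6 largest falls among called members with groups that did not overlap and at least 2 CPM in the higher group, up to 10 called the same way in T24, 5637 and TCC-SUP, the 6 smallest p for differing responses, up to 4 largest ratio changes per line, the 10 highest untreated levels, their partners, and list members. Same-numbered libraries deviated together from their group means in 5637 (correlations 0.28, 0.13 and 0.42) and CLS-439 (0.37, 0.26 and 0.13), so the numbers may mark pairs there. In T24 (0.40, -0.17 and 0.46) and TCC-SUP (0.09, -0.03 and -0.18) they did not do so throughout. The main fit ignored any pairing in all lines, and the replicate number entered as a block only in an alternative fit.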

Additional observations from a re-analysis of the deposited data

Results flagged for a closer look

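The response to MMC of 20 named members differed among the 4 lines in the test of the difference itself (edgeR, adjusted p over all genes). Some were named for a small p in this same test, so their number is no measure of the members as a whole. Of the 1133 tested members 85 (7.5%) differed, against 16% of all genes. Values are for T24, 5637, TCC-SUP and CLS-439 in that order. NOP14-AS1 had log2 changes of 1.51, 1.30, 0.48 and -0.96 (adjusted p = 4.61e-05). AF111167.2 had log2 changes of 4.19, 2.88, 1.07 and -1.59 (adjusted p = 0.000206). FAM198B-AS1 had log2 changes of 0.27, -2.09, -0.32 and 3.29 (adjusted p = 0.000567). NOP14-AS1 rose in T24 and 5637, AF111167.2 rose in every line but CLS-439, and FAM198B-AS1 fell in 5637. The FAM198B-AS1 value for CLS-439 rests on 0 reads in each untreated and 1 in each treated library. That for T24 rests on 1 to 3 reads a library, so these 2 values depend on the prior count. The AF111167.2 value for T24 rests on 1 read in each untreated library. Its CLS-439 value rests on 2, 2 and 3 reads untreated and 0, 1 and 1 after MMC. These 2 AF111167.2 values depend on the prior count too. AC083880.1 had log2 changes of 0.85, 2.84, 0.69 and -0.15 (adjusted p = 0.00178). AL391422.4 had log2 changes of 0.89, 1.75, 0.69 and -0.24 (adjusted p = 0.00213). AC022167.2 had log2 changes of 1.99, -0.90, 0.41 and -1.77 (adjusted p = 0.00306). Its CLS-439 value rests on 4, 2 and 2 reads untreated and 0, 0 and 2 after MMC, so it also depends on the prior count. The others had adjusted p of 0.00637 (FGD5-AS1), 0.00773 (L34079.3), 0.00783 (SNHG12), 0.0149 (AC097461.1), 0.0214 (C5orf66), 0.0243 (AL138724.1), 0.0249 (AC005076.1), 0.0251 (PSMA3-AS1), 0.0305 (HOXA10-AS), 0.0394 (AL117332.1), 0.0414 (AC006329.1), 0.0464 (AC126773.2), 0.0471 (HOTTIP) and 0.0499 (AC009831.1). Without the libraries numbered 4, 0 members differed, without those numbered 3, 7, and without those numbered 1, 132. Groups of 3 libraries were too small for a test of single outlying libraries.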

How the results depend on the processing

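Counts of called members depended on which libraries entered. Leaving out 1 library or 1 library number at a time gave, for T24, 27 to 231 higher and 7 to 59 lower, for 5637 56 to 306 and 10 to 78, for TCC-SUP 2 to 129 and 1 to 82, and for CLS-439 0 to 1 and 0 to 1. It gave 0 to 132 members whose response differed among lines, and ratio calls of 79 to 320 (T24), 124 to 385 (5637), 29 to 221 (TCC-SUP) and 0 to 13 (CLS-439). Single libraries that moved a count by over 1.5 times were treated replicate 3 (125 higher) and 4 (26 lower) in T24. In 5637 they were treated replicate 3 (148 higher), untreated replicate 1 (45 lower) and treated replicate 4 (46 lower). In TCC-SUP they were untreated replicates 1 (58 higher, 26 lower), 3 (57 higher) and 4 (52 higher, 33 lower) and treated replicates 3 (44 higher, 22 lower) and 4 (25 lower). With each line fitted alone, T24 had 110 higher and 22 lower, CLS-439 3 and 4, and ratio calls were 137 in T24, 182 in 5637 and 7 in CLS-439. Members with no exon base opposite a coding exon, a smaller set by construction, gave 49 higher and 16 lower for T24, 71 and 13 for 5637, 27 and 10 for TCC-SUP, 1 lower for CLS-439, 16 that differed, and ratio calls of 53, 67, 33 and 0. Members at 10% or more of the partner's level per kb, a choice made after seeing the data, gave 78 and 25, 114 and 33, and 36 and 29. Without CLS-439, 26 members differed among lines. A prior count of 0.5 gave 114 ratio calls in TCC-SUP and 5 in CLS-439. DESeq2 gave 3 lower in CLS-439, and no filter gave 3 lower. With the replicate block, CLS-439 had 6 ratio calls, and T24 had 184 higher and 53 lower, 5637 255 and 71, and TCC-SUP 109 and 63. The cause of these differences was not tested. Of 138 calls of named members, 37 were kept in every fit and 106 were lost at most without the libraries numbered 3 or 4. Over 1208 refitted values 987 kept the call, 221 lost it and 0 reversed.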
